A study of Mus musculus with 18 samples.

Results

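The genes described here are 32 mouse genes for the enzymes of the tricarboxylic acid (TCA) cycle, for succinate oxidation and for the steps that feed the cycle or draw on it. They were listed by name, with no cut on a measured value, but with earlier results of these data known. Their symbols were matched to the Entrez gene identifiers of the count tables. All 32 were found among 24052 genes listed, and 6 of them form a subgroup for succinate dehydrogenase. RNA came from bone marrow-derived macrophages of C57BL/6 mice, matured from marrow in M-CSF, a macrophage growth factor (20 ng/ml), and libraries captured the 3′ ends of polyadenylated mRNA. In the first experiment, wild-type cells were given vehicle or 0.25 mM dimethyl itaconate (called the compound below), an ester of itaconate that crosses cell membranes, for 12 h. They then received 100 ng/ml LPS, a bacterial lipopolysaccharide, for 4 h, or no stimulus, which made 4 groups of 3 libraries, called compound, vehicle, LPS and compound plus LPS. In the second experiment, 3 libraries of Irg1-/- cells and 3 of wild-type cells were compared, all stimulated for 24 h with interferon gamma (50 ng/ml) and LPS (100 ng/ml), so neither group was unstimulated. The 2 experiments had no group in common. An ester added from outside is not the same as itaconate made by the cell, and cultured macrophages are a model of the cell in tissue.

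The TCA cycle oxidises acetyl-CoA, delivered by the pyruvate dehydrogenase complex, and passes electrons to the respiratory chain. Succinate dehydrogenase oxidises succinate to fumarate and is at the same time complex II of that chain. In macrophages given LPS, succinate and citrate are known to build up, and part of the citrate pool is turned by way of aconitate into itaconate by the enzyme encoded by Irg1 (current symbol Acod1). Itaconate is a competitive inhibitor of succinate dehydrogenase. Inhibition of an enzyme by a metabolite need not alter the level of its transcript, and only transcripts were measured.

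Promoter sequence was looked at to describe these genes beside all genes with a promoter entry. RefSeq promoter entries (GRCm38.p6) existed for 30 of the 32 genes, in 36 windows of 250 bases before a start site, with none under Idh3a or Sdhc. Median GC content of these windows was 60.8%, against 52.4% over all 32851 windows. A GC box (GGGCGG, both strands) lay in the window of 20 of 30 genes, or 66.7%, against 35.4% of 27025 genes. A CCAAT box (CCAAT, both strands) lay in 16 of 30, or 53.3%, against 37.5%. The ETS core CCGGAAG was in 4 of 30 (13.3% against 7.83%). The core of the antioxidant response element, TGACNNNGC, was also in 4 of 30 (13.3% against 11.5%). A kappa B site, a motif of NF-kappa B factors with variable inner bases, was in 13 of 30 (43.3% against 19.7%). TATAAA was in 1 of 30, Got2 (3.33% against 14.3%). All patterns were searched on both strands, and matches to different patterns may share bases. A match describes the letters of a window and is not a measured binding site. No genes matched for GC content or expression were compared, so no pattern is shown to be particular to this set. Windows that overlap an annotated gene are not shown. The 3 printed below are those of genes that carry results in what follows: the citrate carrier, a succinate dehydrogenase subunit and a pyruvate dehydrogenase subunit. They read 5′ to 3′ on the strand of the gene, with capitals for GC boxes, CCAAT boxes and ETS cores on either strand. Slc25a1 (chr16:17928220-17928469, minus strand) has 4 GC boxes and 1 CCAAT box at 70% GC. Sdhb (chr4:140961021-140961270, plus strand) has 3 GC boxes and 1 CCAAT box at 59.2% GC. Pdha1 (chrX:160138431-160138680, minus strand) has none of these 3 patterns in its window, at 61.6% GC.
Slc25a1: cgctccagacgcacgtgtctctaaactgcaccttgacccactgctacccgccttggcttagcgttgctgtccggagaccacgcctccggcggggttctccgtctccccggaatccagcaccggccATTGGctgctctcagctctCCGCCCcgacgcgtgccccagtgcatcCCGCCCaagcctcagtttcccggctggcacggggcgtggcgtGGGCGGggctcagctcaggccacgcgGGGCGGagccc
Sdhb: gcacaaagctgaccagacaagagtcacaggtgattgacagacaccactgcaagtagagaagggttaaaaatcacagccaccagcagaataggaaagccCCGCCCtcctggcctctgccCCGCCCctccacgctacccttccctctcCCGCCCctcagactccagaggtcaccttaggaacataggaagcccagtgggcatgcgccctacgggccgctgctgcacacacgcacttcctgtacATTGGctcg
Pdha1: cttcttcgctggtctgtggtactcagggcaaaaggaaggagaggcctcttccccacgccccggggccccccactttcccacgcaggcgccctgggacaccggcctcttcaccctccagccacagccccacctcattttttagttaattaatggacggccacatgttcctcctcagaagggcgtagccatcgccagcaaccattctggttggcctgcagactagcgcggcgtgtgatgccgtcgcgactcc

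Depth ran from 955718 to 7629669 counts a library in the first experiment and from 3088644 to 5491684 in the second. The LPS group held the shallowest library, replicate 3 with 955718 counts and 7653 genes detected, against 9562 to 12784 in the other 11 libraries of that experiment. Single counts weigh most there: 3 counts equal 3.14 CPM (counts scaled to a common library total) in that library and 0.393 in the deepest. For part of the genes, values that rest on the LPS group are therefore also given without LPS replicate 3. Each call of the 31 tested genes that changed without it is named. Acod1 checked the labels, with 28.4, 14.8 and 31.4 CPM in the 3 knockout libraries against 4131, 4665 and 4225 in wild type. All 8 macrophage markers were detected. Their summed level, in CPM of the library total, was 7519 to 10535 in vehicle, 3460 to 5051 in compound, 2951 to 3888 in LPS and 3414 to 4618 in compound plus LPS libraries. The members of that list did not move as one: after LPS, Fcgr1 (5.59-fold) and Cd14 (6.83-fold) rose, Csf1r (1.89-fold) and Lyz2 (2.10-fold) fell, and the other 4 did not pass. Neutrophil markers summed to 150 to 517 CPM in the first experiment and to 9.11 to 16.5 in the second. Stromal (collagen and decorin) markers summed to 15.3 to 73.6 and 9.25 to 19.5 CPM, dendritic cell markers to at most 7.18 and 10.7, and B cell markers to at most 4.14 and 0.971. Flt3 was at 0 in every library, and in the first experiment so were the T and NK cell markers Cd3e, Cd8a, Nkg7 and Ncr1. For compound plus LPS against LPS, 1 of 4 stromal and 1 of 5 tested neutrophil markers passed and are given beside that comparison. The part of cell makeup in the results was not tested.

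As a share of all counts, the 32 genes were lowest in the LPS group. They made up 0.158%, 0.188% and 0.192% of the counts in the 3 vehicle libraries (from lowest to highest) and 0.146%, 0.158% and 0.177% with the compound. After LPS the shares were 0.0539%, 0.0773% and 0.0912%, below every library of the other groups of that experiment. With compound plus LPS they were 0.0954%, 0.0986% and 0.107%, between LPS and the groups without LPS, with no overlap. The knockout libraries held 0.0942%, 0.108% and 0.122%, and wild type 0.0983%, 0.111% and 0.119%, which overlap. A share of all counts also moves when other transcripts take up more of a library, as LPS-induced ones do. In bulk RNA, fewer cells of a type and less RNA per cell cannot be told apart. After scaling by the trimmed mean of M-values (TMM), which sets a common level for most genes, the groups lay closer together. The summed TMM-scaled CPM was 1270 ± 73.6 (SD, n = 3 throughout) in vehicle, 1305 ± 93.3 with the compound, 1023 ± 103 after LPS and 1227 ± 28.2 with both. It was 1063 ± 94.1 in the knockout and 1107 ± 80.3 in wild type. All levels below are TMM-scaled CPM, in replicate order. Fold changes are on the log2 scale ± standard error from edgeR's quasi-likelihood test, with Benjamini-Hochberg adjustment over all genes tested, and a gene is said to have passed at an adjusted p under 0.05. Tests covered 31 of the 32 genes in each experiment. Pcx, the pyruvate carboxylase that makes oxaloacetate, had 0 to 11 counts a library and was left out by the filter on low counts.

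**Figure D1:**
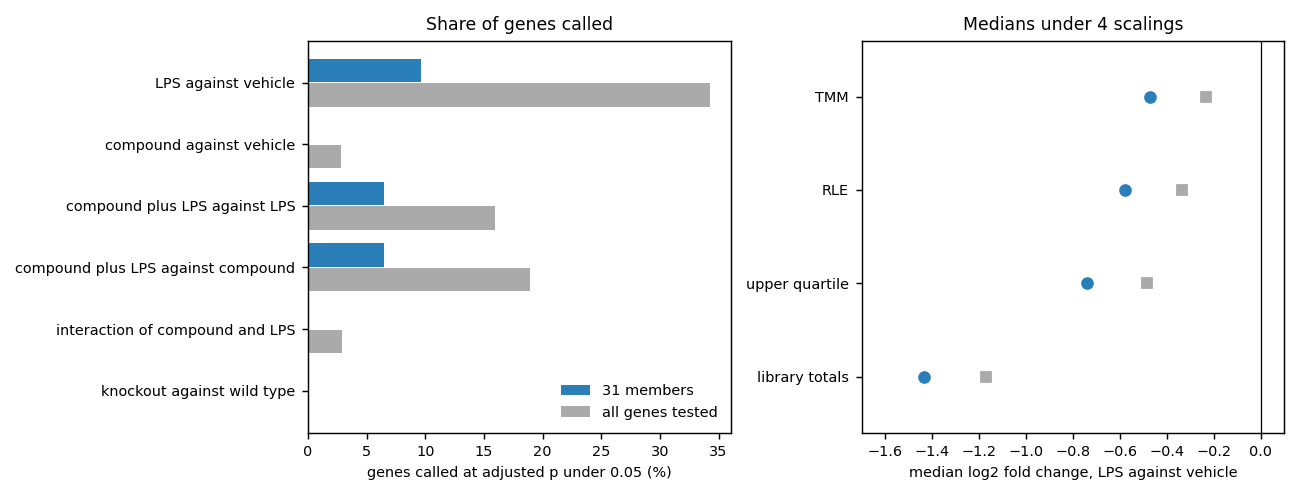
Left: share (%) of the 31 tested TCA and feeding genes and of all genes tested that passed at an adjusted p under 0.05, per comparison. Right: median log2 fold change, LPS against vehicle, of the same 31 genes and of all genes under 4 ways of scaling the libraries. Blue marks the 31 genes and grey all genes in both panels. After LPS 9.68% of the 31 genes passed against 34.3% of all, and the choice of scaling shifts both medians together, from -0.47 and -0.24 with TMM to -1.44 and -1.17 with library totals.

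LPS against vehicle asks how these transcripts respond to endotoxin in cells without the compound. Of the 31 genes, 3 fell and none rose: Idh3g, Slc25a1 and Slc25a11. That is 9.68% of them, against 34.3% of the 10285 genes tested that passed in either direction, 16.0% that rose and 18.4% that fell. The median log2 fold change of the 31 was -0.47, against -0.24 over all genes tested, and 24 of the 31 values were below 0 (77.4%, against 58.1% of all genes). All LPS libraries lay below all vehicle libraries for 6 of the 31 (19.4%, against 27.3% of all genes). They lay above for 0 of the 31, against 16.7% of all genes. The comparison depends on scale. With library totals alone and no TMM factor, 24 of the 31 passed as lower, but the median of all genes then stood at -1.17 and 56.4% of all genes passed. A change of scaling factors shifts all genes nearly alike, so it cannot test the distance between the 31 genes' median and that of all genes. That distance, -0.24 in the fit used here, depended on single libraries: it was -0.45 without vehicle replicate 2, -0.12 without LPS replicate 2 and -0.28 without LPS replicate 3.

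Among the steps from acetyl-CoA to succinate, Idh3g was the gene that passed. It encodes a regulatory subunit of the NAD-dependent isocitrate dehydrogenase (Entrez gene 15929, chromosome X from 73778963 to 73786897, GRCm38). Its levels were 22.7, 22.1 and 21.6 CPM in vehicle and 3.64, 10.7 and 5.45 after LPS. Every LPS library lay below every vehicle library, and the fall was 3.36-fold (log2 -1.75 ± 0.50, adjusted p = 0.012). The value was -1.68 without LPS replicate 3 (adjusted p = 0.013). It missed the threshold without LPS replicate 1 (-1.35, adjusted p = 0.056) and with only the vehicle and LPS groups fitted (-1.69, adjusted p = 0.061). The partner subunits had log2 changes of -0.88 ± 0.61 (Idh3a, the catalytic one) and -0.05 ± 0.36 (Idh3b), and neither passed. Idh2, the mitochondrial NADP-dependent enzyme, stood at 12.9, 18.0 and 15.7 CPM in vehicle and 10.6, 3.37 and 1.82 after LPS (-1.31 ± 0.53, adjusted p = 0.065), with no overlap, and was at -1.03 without LPS replicate 3 (adjusted p = 0.11). Idh2 passed in 5 of 19 alternative fits. These were DESeq2 (-1.42, adjusted p = 0.02), RLE factors (-1.42, adjusted p = 0.043) and upper quartile factors (-1.58, adjusted p = 0.025). The others were library totals (-2.20, adjusted p = 0.0038) and the fit without LPS replicate 1 (-2.42, adjusted p = 0.007). The other members of this stretch did not pass, with log2 changes from -1.17 for Aco1, the cytosolic aconitase, to 0.82 for Dld, the E3 subunit that 2-oxoacid dehydrogenases share. Cs, the citrate synthase that opens the cycle, had a value of 0.73 ± 0.32 (adjusted p = 0.087), or 0.55 without that library (adjusted p = 0.16). Without LPS replicate 3, Dld passed as higher (1.12, adjusted p = 0.0062) and Aco1 as lower (-3.00, adjusted p = 0.0018). Aco1 stood at 2.98, 0 and 27.2 CPM in the 3 LPS libraries, and the last is the library left out.

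Both carriers that fell move TCA intermediates across the inner mitochondrial membrane. Slc25a1, the citrate carrier (Entrez gene 13358, chromosome 16 from 17925211 to 17928219), had 4.56, 9.17 and 6.40 CPM in vehicle and 0.993, 2.25 and 0 after LPS. The LPS values rest on 3, 4 and 0 counts. The groups did not overlap, and the fall was 4.99-fold (log2 -2.32 ± 0.77, adjusted p = 0.027). It passed without LPS replicate 3 (-2.07, adjusted p = 0.038). It missed the threshold without vehicle replicate 2, vehicle replicate 3 or LPS replicate 1 (-2.35 to -2.03, adjusted p = 0.055 to 0.092) and with only the 2 compared groups fitted (adjusted p = 0.088). Slc25a11, the 2-oxoglutarate carrier (Entrez gene 67863, chromosome 11 from 70644019 to 70647531, where it overlaps Rnf167), had 53.0, 60.8 and 42.7 CPM in vehicle and 37.1, 18.0 and 21.8 after LPS. Again no LPS library reached the vehicle range, and the fall was 1.98-fold (-0.98 ± 0.36, adjusted p = 0.041). This call rests on a narrow margin: it passed in 8 of 19 alternative fits. It was lost without any 1 of 9 of the 12 libraries (all but compound replicate 2, LPS replicate 1 and compound plus LPS replicate 2), with adjusted p from 0.050 to 0.16, and without LPS replicate 3 it was -0.85 (adjusted p = 0.065). Acly, which splits exported citrate into acetyl-CoA, and Slc25a10, the dicarboxylate carrier, had values of -0.36 ± 0.40 and -0.41 ± 0.52, and of -0.71 and -0.33 without LPS replicate 3.

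None of the 3 genes past fumarate passed after LPS: Fh1, the fumarase, was at -0.83 ± 0.59, Mdh1 and Mdh2, the cytosolic and mitochondrial malate dehydrogenases, at -0.80 ± 0.40 and -0.62 ± 0.33. The pyruvate dehydrogenase subunits were at -0.47 (Pdha1), -0.61 (Pdhb) and -0.36 (Dlat). The aspartate aminotransferases Got1 and Got2, which exchange oxaloacetate and aspartate, were at -1.58 ± 0.70 (adjusted p = 0.091) and -0.40 ± 0.36. Got1 stood at 28.9, 24.8 and 32.6 CPM in vehicle and 11.9, 0 and 21.8 after LPS, with no overlap, and passed without LPS replicate 3 (-2.07, adjusted p = 0.017). Glud1, the glutamate dehydrogenase, was at -0.71 ± 0.40.

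**Figure D2:**
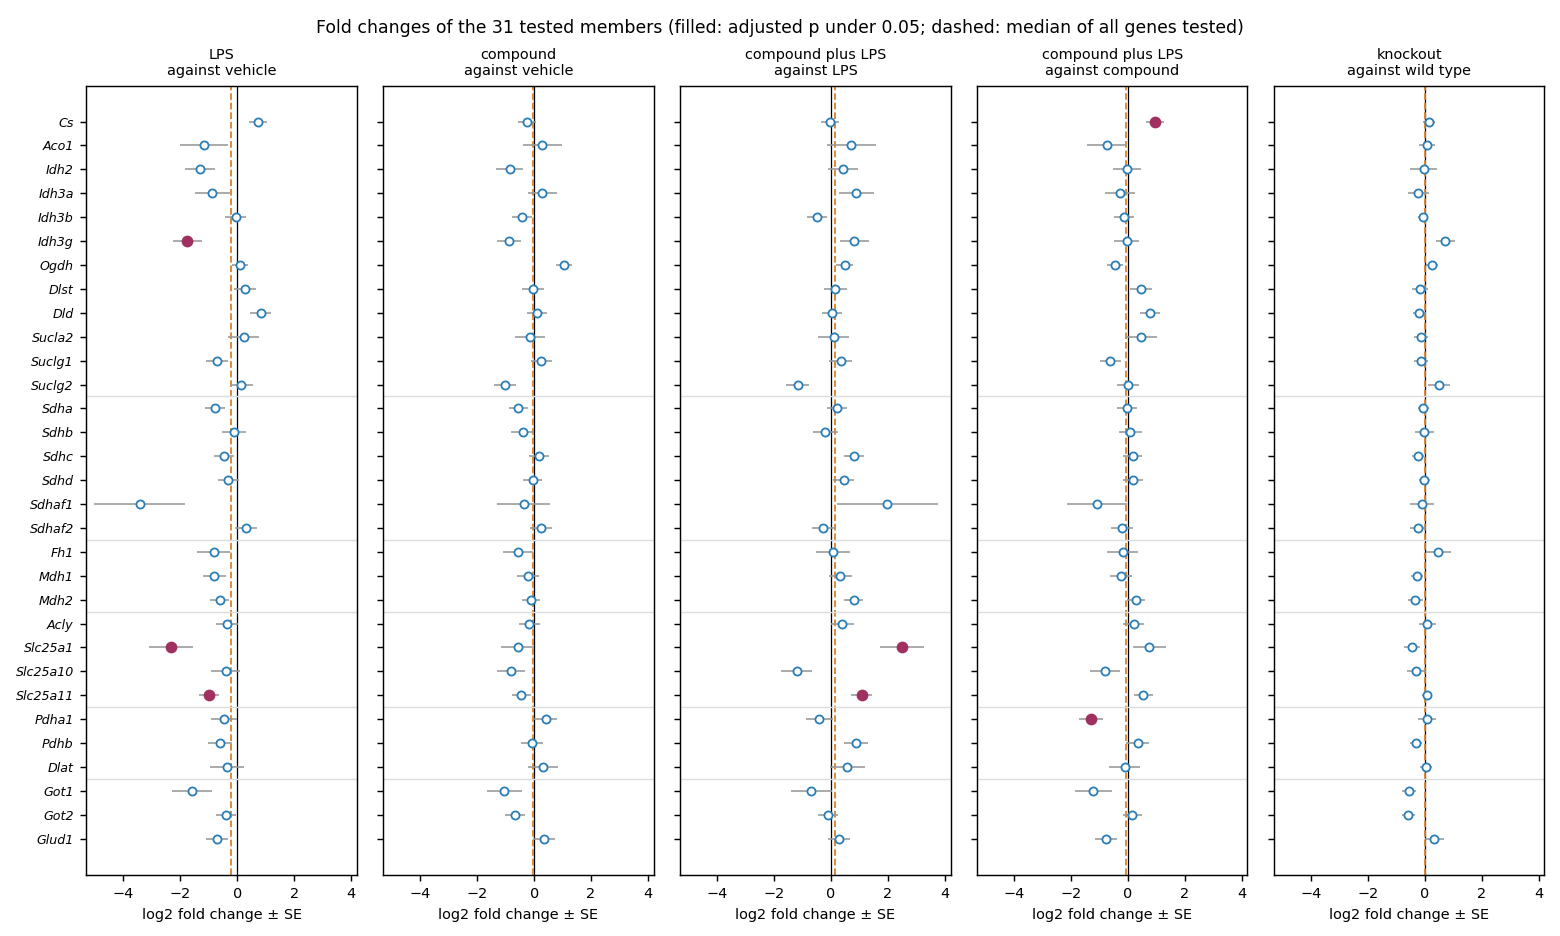
Log2 fold change ± standard error of each of the 31 tested genes (rows, in order of their role) in 5 comparisons (panels). Filled points passed at an adjusted p under 0.05 and the dashed line is the median of all genes tested; filled points number 3 after LPS, 0 with the compound alone, 2 and 2 in the comparisons of compound plus LPS, and 0 in the knockout.

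Compound against vehicle asks what 12 h of the ester does to resting cells. None of the 31 genes passed in edgeR's quasi-likelihood test, against 2.84% of all genes (1.33% higher, 1.51% lower), and 2 had an unadjusted p under 0.05. All compound libraries lay above all vehicle libraries for 1 of the 31 (3.23%, against 14.6% of all genes). They lay below for 6 (19.4%, against 16% of all genes). The median of the 31 was -0.16, against -0.05 over all genes. DESeq2 called 1 of them, Ogdh (log2 1.01, adjusted p = 0.0023). The 2 lowest p-values were those of Ogdh and Suclg2, named here after their values were seen, which act before and at the step that makes succinate. Ogdh, the E1 subunit of 2-oxoglutarate dehydrogenase, had 98.3, 114 and 129 CPM in vehicle and 212, 282 and 211 with the compound. All 3 treated libraries lay above all 3 controls, a 2.06-fold difference (log2 1.04 ± 0.29, adjusted p = 0.059). Suclg2, the GDP-forming beta subunit of succinyl-CoA synthetase, had 54.0, 64.2 and 52.5 CPM in vehicle and 24.4, 24.3 and 34.4 with the compound (-1.04 ± 0.39, adjusted p = 0.20), also with no overlap. Both passed without LPS replicate 3, whose spread enters the shared fit (Ogdh 1.07, adjusted p = 0.0074, and Suclg2 -1.01, adjusted p = 0.038), and with only the 2 compared groups fitted (adjusted p = 0.012 and 0.018). Sucla2 and Suclg1, the ADP-forming beta subunit and the alpha subunit of the same enzyme, were at -0.15 ± 0.53 and 0.25 ± 0.37. Idh3g was at 15.1, 7.27 and 13.4 CPM with the compound, below the vehicle libraries (-0.89 ± 0.43, adjusted p = 0.38).

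Compound plus LPS against LPS asks how pre-treatment alters the transcripts of LPS-stimulated cells. Of the 31 genes, 2 rose and none fell in edgeR's test (6.45%, against 15.9% of all genes that passed, 8.38% that rose and 7.53% that fell). The 2 are the carriers that fell after LPS, Slc25a1 and Slc25a11. All libraries with both agents lay above all LPS libraries for 5 of the 31 (16.1%, against 18.9% of all genes). They lay below for 1 (3.23%, against 10.7% of all genes). The median of the 31 was 0.33, against 0.13 over all genes. Single LPS libraries carried that order: it turned without LPS replicate 2 (0.0995 against 0.20) and narrowed without LPS replicate 3 (0.17 against 0.0965). This comparison shares the LPS libraries with LPS against vehicle, so low values in the LPS group move both estimates away from 0. Slc25a1 stood at 8.82, 3.98 and 9.32 CPM with both agents, above all LPS libraries and overlapping the vehicle range (5.60-fold above LPS, log2 2.49 ± 0.77, adjusted p = 0.036). It was 2.26 without LPS replicate 3 (adjusted p = 0.044). It missed the threshold without any 1 of 5 libraries (vehicle 3, compound 3, LPS 1, and compound plus LPS 1 or 3; adjusted p = 0.053 to 0.11) and with only the 2 compared groups fitted (adjusted p = 0.15). With replicate number as a block its adjusted p was 0.066. Slc25a11 stood at 47.6, 74.1 and 45.1 CPM, above all LPS libraries (2.11-fold, log2 1.08 ± 0.36, adjusted p = 0.049). It passed in 3 of 19 alternative fits, and was lost without any 1 of the 12 libraries except LPS replicate 1 (0.82 to 1.21, adjusted p = 0.055 to 0.19), with 0.96 without LPS replicate 3 (adjusted p = 0.069). Among markers of other cell types, 1 of 4 stromal and 1 of 5 tested neutrophil markers passed in the same comparison. Col3a1, a collagen of stromal cells, stood at 6.62, 6.18 and 30.9 CPM after LPS and 0.588, 0.612 and 0 with both agents, on 48 and 5 counts (-4.86 ± 0.92, adjusted p = 0.0016). S100a8, a neutrophil marker, was 2.50-fold higher with both agents (adjusted p = 0.013). The other 4 tested neutrophil markers did not pass and had estimates below 0 (S100a9 -0.38, Camp -0.825, Ngp -0.79 and Ltf -0.24). The other 3 stromal markers did not pass either (Dcn 1.16, Col1a1 -0.97 and Col1a2 -0.12). Of the 8 macrophage markers 1 passed, Fcgr1, which was 8.27-fold lower with both agents (adjusted p = 4.9e-06). The part of cell makeup in the carriers' values was not tested. Suclg2 stood at 29.6, 23.3 and 31.1 CPM against 26.8, 61.8 and 109 after LPS alone, a wide spread (-1.17 ± 0.40, adjusted p = 0.058). DESeq2, which called 3 of the 31 genes, called it lower (-1.28, adjusted p = 0.019). It also passed with RLE factors (-1.27, adjusted p = 0.046) and without LPS replicate 1 (-1.50, adjusted p = 0.0074), while without LPS replicate 3, its highest value, it was -0.65 (adjusted p = 0.20). Without LPS replicate 3, Aco1 passed as higher (2.56, adjusted p = 0.014) where it did not with all libraries (0.71 ± 0.86). Idh3g, at 9.02, 17.2 and 8.70 CPM, lay below every vehicle library and overlapped the LPS range (0.81 ± 0.51 against LPS, adjusted p = 0.31).

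Compound plus LPS against compound asks how compound-treated cells respond to LPS. Here 1 of the 31 genes rose and 1 fell (6.45%, against 18.9% of all genes that passed, with 11.4% up and 7.56% down), and the median was -0.03 against -0.06 over all genes, an order that turned without compound replicate 2 (-0.0725 against -0.0533) or compound plus LPS replicate 1 (-0.13 against -0.0779). Cs rose from 41.1, 28.6 and 35.3 CPM to 66.9, 68.6 and 67.1, with no overlap (Entrez gene 12974, chromosome 10 from 128337727 to 128362482; 1.93-fold, log2 0.95 ± 0.31, adjusted p = 0.041). After LPS without the compound Cs stood at 73.8, 43.2 and 92.6 CPM against 48.7, 39.4 and 35.8 in vehicle. The difference between the 2 responses was 0.22 ± 0.45 (interaction, 95% interval -0.72 to 1.15). Pdha1, the E1 alpha subunit that decarboxylates pyruvate (Entrez gene 18597, chromosome X from 160122219 to 160138430, where it overlaps Map3k15), fell from 20.8, 21.3 and 16.9 CPM to 9.80, 7.04 and 7.15 (2.44-fold, -1.29 ± 0.43, adjusted p = 0.041), again with no overlap. Its partners did not pass (Pdhb 0.34 ± 0.40, Dlat -0.12 ± 0.53). Groups without overlap were found for 3 of the 31 upward (9.68%) and 4 downward (12.9%), against 22.3% of all genes in each direction. Neither call was lost without LPS replicate 3 (adjusted p = 0.012 for Cs and 0.016 for Pdha1), and Dld then passed as higher too (0.76, adjusted p = 0.042). The Cs call was lost without any 1 of the 9 libraries of the other groups (0.82 to 1.07, adjusted p = 0.054 to 0.16), and that of Pdha1 without any 1 of them but vehicle replicate 2 (-1.48 to -1.20, adjusted p = 0.054 to 0.13). With RLE factors, upper quartile factors or library totals the Cs value was 0.80, 0.73 and 0.35 (adjusted p = 0.085, 0.14 and 0.43), and with the replicate block the adjusted p of Pdha1 was 0.059.

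The interaction, which tests whether the response to LPS differed with and without the compound, passed for none of the 31 genes in edgeR's quasi-likelihood test, against 2.91% of all genes (1.39% higher, 1.52% lower). An unadjusted p under 0.05 was reached by 3, Slc25a1, Slc25a11 and Idh3g. Slc25a1 had 3.06 ± 0.97 (95% interval 1.03 to 5.10, adjusted p = 0.097), Slc25a11 had 1.52 ± 0.49 (0.49 to 2.56, adjusted p = 0.10) and Idh3g had 1.70 ± 0.67 (0.29 to 3.11, adjusted p = 0.18). DESeq2 called 2 of them, Slc25a1 and Slc25a11. With LPS replicate 3 left out the 3 values were 2.80, 1.38 and 1.61 (adjusted p = 0.069, 0.076 and 0.13). All 3 estimates are positive, meaning a smaller fall or a rise after LPS when the compound was present. In edgeR's test with all libraries, the carriers' fall after LPS without the compound is thus not shown to differ from their response with it. This result depends on the method. DESeq2 gave 3.05 for Slc25a1 (adjusted p = 0.025) and 1.48 for Slc25a11 (adjusted p = 0.044). In edgeR, Slc25a11 also passed without LPS replicate 1 (1.99, adjusted p = 0.033).

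**Figure D3:**
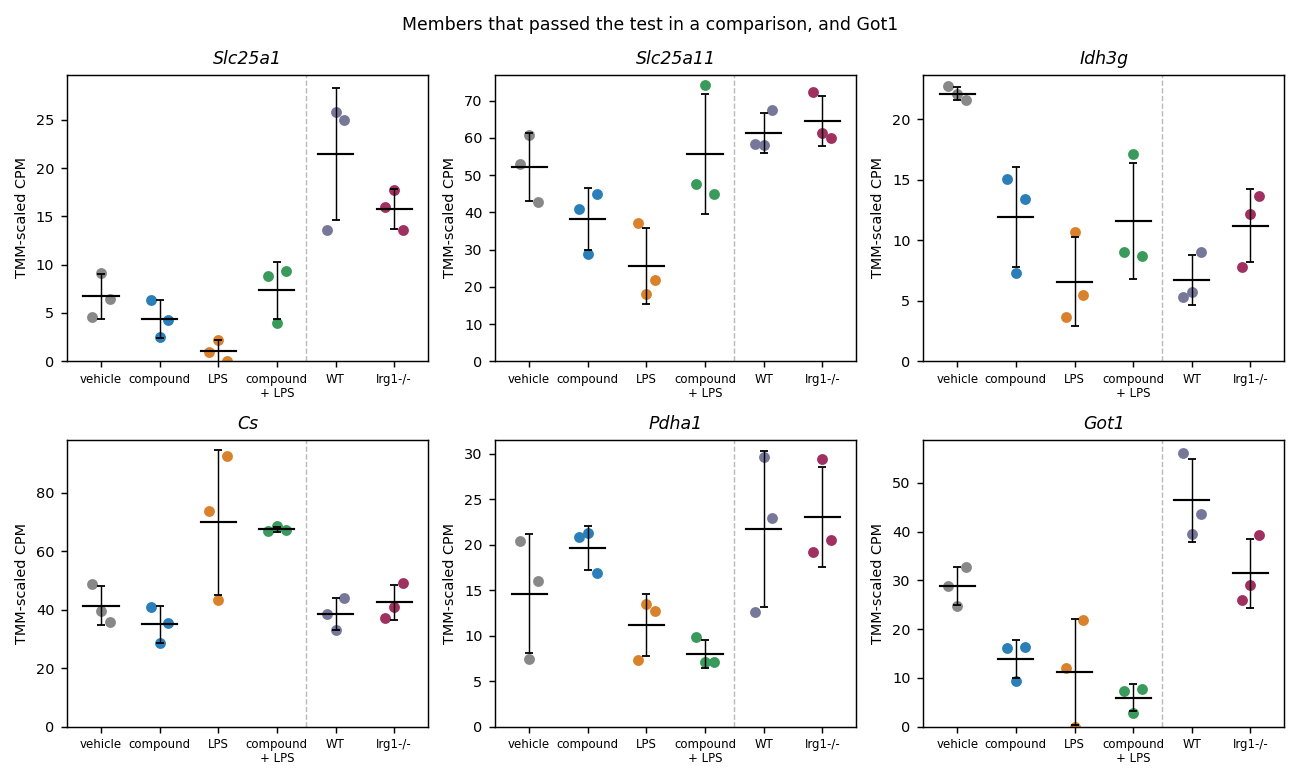
TMM-scaled CPM of the 5 genes that passed in a comparison and of Got1, by library (points), with the mean (line) and SD (bars, cut at 0), in 4 groups of the first experiment and 2 of the second, 3 libraries each. Slc25a1 and Slc25a11 have their lowest means in the LPS group, Idh3g is highest in vehicle, Cs in compound plus LPS stays within 66.9 to 68.6, and the 3 Irg1-/- libraries lie below the 3 wild-type ones for Got1.

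The succinate dehydrogenase subgroup comprises the catalytic flavoprotein Sdha, the iron-sulphur subunit Sdhb, the membrane anchors Sdhc and Sdhd, and the assembly factors Sdhaf1, which serves the iron-sulphur subunit, and Sdhaf2, which attaches the flavin to Sdha. None of the 6 passed in any of the 6 comparisons in edgeR's test with TMM factors. With library totals alone, where 56.4% of all genes passed after LPS, 5 of the 6 passed as lower there: Sdha, Sdhb, Sdhc, Sdhd and Sdhaf1 (adjusted p = 0.0026 to 0.032). Their summed level was 277 ± 37.3 CPM in vehicle, 261 ± 21.8 with the compound, 212 ± 55.8 after LPS, 275 ± 14.7 with both, 249 ± 54.8 in the knockout and 269 ± 43.5 in wild type. The LPS group had the lowest mean and a wide spread, and its range overlapped that of each other group of the experiment.

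Sdha (Entrez gene 66945, chromosome 13 from 74322255 to 74350240) came nearest to a call after LPS. It stood at 69.1, 66.6 and 70.1 CPM in vehicle and at 66.2, 25.3 and 23.6 after LPS. All LPS values were lower, but replicate 1 by little (log2 -0.78 ± 0.36, 95% interval -1.53 to -0.02, adjusted p = 0.10). Without LPS replicate 1 the gene passed (-1.52, adjusted p = 0.0033), and without LPS replicate 3 it did not (-0.52, adjusted p = 0.24). It also passed in DESeq2 (-0.88, adjusted p = 0.038), with upper quartile factors (-1.03, adjusted p = 0.027) and with library totals (-1.69, adjusted p = 0.0026). With the compound Sdha stood at 53.1, 45.4 and 41.8 CPM, below all vehicle libraries (-0.55 ± 0.35, adjusted p = 0.53), and with both agents at 50.0, 39.2 and 49.1. The compound plus LPS libraries stood against those with the compound alone at -0.02 ± 0.35 (95% interval -0.75 to 0.71).

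Sdhb (Entrez gene 67680, chromosome 4 from 140961271 to 140979198) stood at 74.0, 38.1 and 35.8 CPM in vehicle and at 46.4, 20.2 and 76.3 after LPS, which overlap (-0.12 ± 0.43, or -0.51 without LPS replicate 3). The sign of its estimate turned in at least 1 alternative fit of each of the 6 comparisons. Sdhc (Entrez gene 66052, chromosome 1 from 171129157 to 171150640) stood at 102, 83.6 and 123 CPM in vehicle, 120, 137 and 93.3 with the compound, and 96.7, 89.9 and 29.1 after LPS. With both agents it was 130, 123 and 140, above every LPS library (0.82 ± 0.35, adjusted p = 0.13). Without LPS replicate 3, the lowest of them, the difference was 0.47 (adjusted p = 0.26). Sdhd (Entrez gene 66925, chromosome 9 from 50596340 to 50603849) stayed within 16.9 to 39.8 CPM over all 12 libraries of the first experiment, with log2 changes of -0.32 ± 0.37 after LPS and 0.45 ± 0.37 for both agents against LPS (-0.49 and 0.63 without LPS replicate 3). Of the assembly factors, Sdhaf2 (Entrez gene 66072) had 29.0, 22.8 and 25.0 CPM in vehicle and 44.0, 33.1 and 12.7 after LPS (0.31 ± 0.39, or 0.63 without LPS replicate 3), so the LPS libraries lay on both sides. Sdhaf1 (Entrez gene 68332) was close to the detection limit, with 28, 0 and 24 counts in vehicle and 0, 1 and 0 after LPS. The ratio of LPS to vehicle was 0.0701, with a counting interval of 0.00174 to 0.408, which covers counting error only (adjusted p = 0.11).

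**Figure D4:**
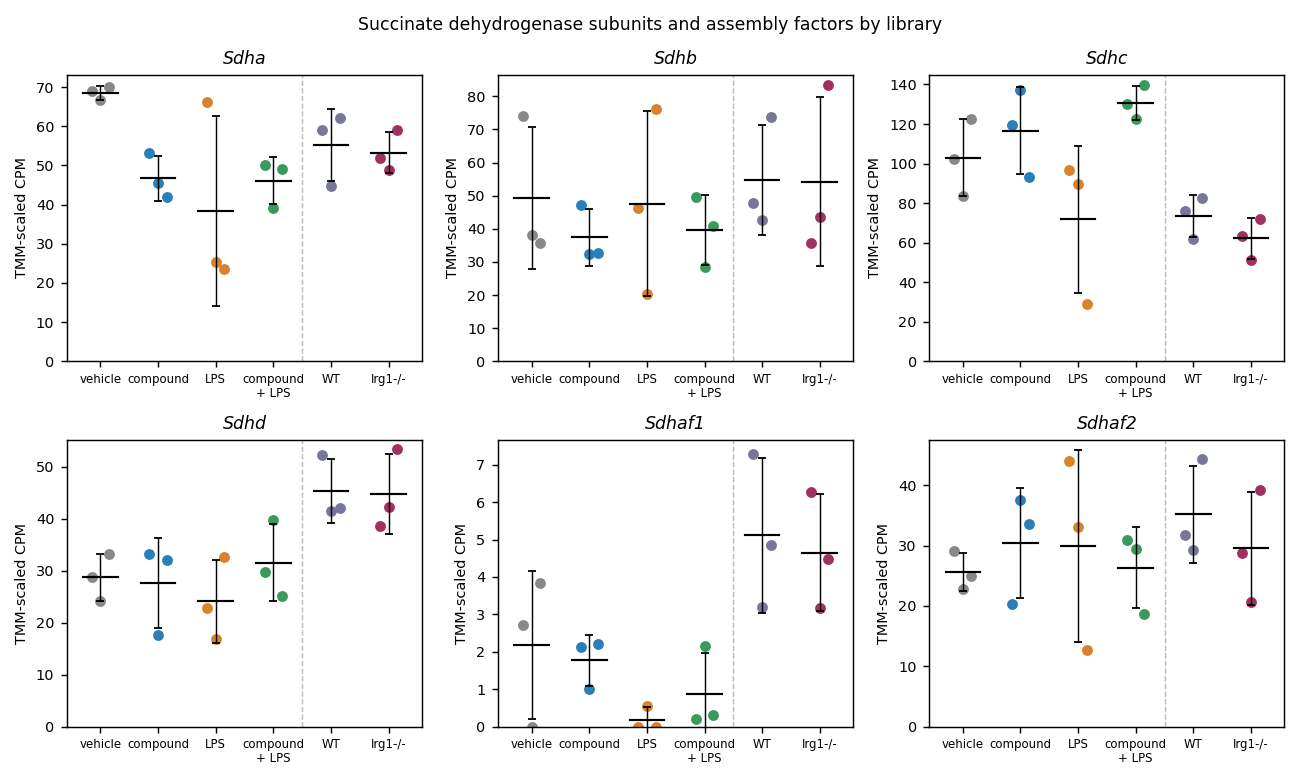
TMM-scaled CPM of the 4 succinate dehydrogenase subunits and 2 assembly factors, by library (points), with mean (line) and SD (bars, cut at 0), 3 libraries a group. Sdha in LPS is split, with replicate 1 at 66.2 and the others at 25.3 and 23.6, and in the second experiment (right of the dashed line) wild type and Irg1-/- overlap for all 6 genes.

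Knockout against wild type asks whether loss of the itaconate-making enzyme changes these transcripts after 24 h of LPS and interferon gamma. With groups alone and no replicate block, none of the 31 genes passed in edgeR's quasi-likelihood test. That compares with 0.0632% of the 9491 genes tested, which is 6 genes. An unadjusted p under 0.05 was reached by 2, Got1 and Got2, and DESeq2 called 0. The median of the 31 was -0.07 against 0.01 over all genes. For the 6 succinate dehydrogenase genes all estimates were slightly below 0, from -0.25 to -0.01, but the signs of 4 of them turned when single libraries were left out. The 95% intervals of the 4 subunits were as follows: Sdha lay between -0.50 and 0.39, Sdhb between -0.71 and 0.68, Sdhc between -0.69 and 0.21, and Sdhd between -0.47 and 0.44. With replicate number as a block, since same-numbered libraries of this experiment deviated together, they were narrower: -0.33 to 0.24 for Sdha, -0.35 to 0.24 for Sdhb, -0.51 to 0.02 for Sdhc and -0.33 to 0.30 for Sdhd. Sdha stood at 52.0, 48.7 and 59.0 CPM in the knockout and 59.0, 44.6 and 62.0 in wild type. Sdhb stood at 35.6, 43.7 and 83.4 against 47.7, 42.7 and 73.7, where the third replicate was the highest in both genotypes.

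The pair of aspartate aminotransferases had the lowest p-values of the 31. Got1 (Entrez gene 14718, chromosome 19 from 43499752 to 43524605) stood at 25.9, 29.1 and 39.4 CPM in the knockout and 56.0, 39.5 and 43.7 in wild type. The ranges just fail to overlap (-0.56 ± 0.23, adjusted p = 0.67). All knockout libraries lay below all wild-type libraries for 4 of the 31 (12.9%, against 7.24% of all genes). They lay above for 0 of the 31, against 6.12% of all genes. Got2 stood at 16.0, 15.9 and 23.0 CPM in the knockout and 23.9, 26.5 and 31.6 in wild type (-0.58 ± 0.24, adjusted p = 0.65), and its counts may include reads of the pseudogene Got2-ps1. With the replicate block Got1 passed as lower (-0.56 ± 0.17, adjusted p = 0.037) while Got2 did not (-0.58 ± 0.19, adjusted p = 0.060). With that block 594 of all genes passed instead of 6. Idh3g, which fell after LPS in the first experiment, had 7.81, 12.2 and 13.6 CPM in the knockout and 5.30, 5.74 and 9.05 in wild type (0.71 ± 0.34, adjusted p = 0.73).

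A list of 31 further genes of the same pathways (other isoforms, regulators of pyruvate dehydrogenase, glutamine and malate enzymes, mitochondrial carriers and acetate activation) had 26 tested members in the first experiment and 24 in the second. Ogdhl and Slc25a21 were at 0 in every library. The list was drawn up with earlier results of these data known and includes Acod1. Its shares beside those of all genes are therefore descriptive and do not test the pathway. After LPS 3 rose and 8 fell, which is 42.3% of the 26, against 34.3% of all genes. Besides Acod1, the risers were the glutamate carrier Slc25a22 (25.0-fold, log2 4.65 ± 0.50, adjusted p = 1.3e-06) and the aspartate-glutamate carrier Slc25a12 (7.44-fold, 2.89 ± 0.37, adjusted p = 7.6e-06). Slc25a22 went from 29.8, 57.8 and 29.3 CPM to 574, 577 and 1765, and Slc25a12 from 22.7, 21.7 and 20.5 to 105, 114 and 274. Without LPS replicate 3, the highest library for both, the values were 3.94 and 2.37, and both still passed. Among the 8 that fell, the 4 lowest p-values were those of Idh1, the cytosolic isocitrate dehydrogenase (-2.04 ± 0.27, adjusted p = 1.5e-05), Glul, the glutamine synthetase (-2.45 ± 0.36, adjusted p = 4.1e-05), Pck2, the mitochondrial phosphoenolpyruvate carboxykinase (-4.13 ± 0.71, adjusted p = 0.00020), and Pdpr, a regulator of pyruvate dehydrogenase phosphatase (-1.97 ± 0.47, adjusted p = 0.0035). The fold of Pck2 is imprecise: it had 31.3, 31.6 and 26.6 CPM in vehicle and 3.31, 0 and 0 after LPS, and the fitted value ran from -10.27 without LPS replicate 1 to -3.49 without LPS replicate 2. Idh1 had 410, 318 and 417 CPM in vehicle and 104, 99.4 and 72.6 after LPS. All 4 still passed without LPS replicate 3 (Idh1 -1.88, Glul -2.11, Pck2 -3.87 and Pdpr -1.62).

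With the compound alone 3 of the 26 rose and none fell: Acss2, the cytosolic acetyl-CoA synthetase (3.06 ± 0.50, adjusted p = 0.0016), Acod1 (2.86 ± 0.50, adjusted p = 0.0027) and Me1, the cytosolic malic enzyme that makes NADPH (2.33 ± 0.53, adjusted p = 0.018). These 3 are 11.5% of the 26, against 2.84% of all genes, for a list chosen with earlier results known. Me1 had 3.49, 7.13 and 3.68 CPM in vehicle and 24.2, 31.2 and 13.7 with the compound. Its call was lost without vehicle replicate 1 or 3 or compound replicate 1 or 2 (2.06 to 2.29, adjusted p = 0.072 to 0.13). With compound plus LPS against LPS 4 rose and 2 fell, which is 23.1% of the 26, against 15.9% of all genes. Me1 rose by 3.66 ± 0.61 (adjusted p = 0.00052) and Glul by 2.73 ± 0.36 (adjusted p = 7.2e-05), and by 3.40 and 2.41 without LPS replicate 3. Acss2 had 603 counts against 2 in the LPS group, a ratio of 139 with a counting interval of 38.4 to 1150. Its LPS counts all came from LPS replicate 3 (0, 0 and 3.63 CPM in the LPS libraries). Idh1 rose by 0.87 ± 0.27 (adjusted p = 0.035), and this call was lost without any 1 of 6 libraries, LPS replicate 3 among them (0.72 to 0.95 over the 6, adjusted p = 0.050 to 0.10). Slc25a12 (-1.40 ± 0.35, adjusted p = 0.010) and Slc25a22 (-1.58 ± 0.44, adjusted p = 0.021) were lower with the compound present. They were at -0.86 (adjusted p = 0.024) and -0.84 (adjusted p = 0.085) without LPS replicate 3. Slc25a22 also missed the threshold without compound plus LPS replicate 1 or 2, and Slc25a12 without compound plus LPS replicate 1 (adjusted p = 0.052). Against the compound alone, compound plus LPS raised 3 (Acod1, Slc25a22 and Gpt2) and lowered 2 (Idh1 at -1.13 and Pck2 at -2.23). That is 19.2% of the 26, near the 18.9% of all genes. The call of Gpt2 (2.25 ± 0.66) was lost without any 1 of compound replicates 1 to 3 and compound plus LPS replicates 1 and 3 (adjusted p = 0.062 to 0.11). In the knockout, the only 1 of the 24 tested genes to pass was the deleted gene Acod1 itself (-7.43 ± 0.32, adjusted p = 4.8e-07). Its call follows from the deletion. The share (4.17%, against 0.0632% of all genes) therefore says nothing about the other genes of the list.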

How the data were processed

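The authors deposited a table of raw counts per gene for each experiment, with Entrez gene identifiers. Per the submitters' processing notes, STAR, HTSeq, DESeq2 and build mm10 were used; versions, annotation and counting options are not given in the sources used here, so overlapping genes cannot be told apart. Counts include PCR copies, since no molecular identifiers are described. Of 24052 identifiers, 23969 matched a symbol in RefSeq's GRCm38.p6 table and 83 did not. Each experiment was fitted apart in edgeR 4.0.16 (R 4.3.3): filterByExpr (groups given, minimum count 10), TMM factors, 2-sided quasi-likelihood F test, prior count 0.125, Benjamini-Hochberg adjustment over all genes tested, threshold 0.05. Standard errors were derived from the F statistic. The fit was also run on counts simulated from its own model, for compound against vehicle and knockout against wild type. That checks the code, not how well the model suits these data, and covers no comparison with the LPS group. DESeq2 1.42.0, other scalings, no filter, a replicate block, single libraries left out and 2-group fits were alternatives.

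The members and lists were chosen with earlier results of these data known. Full values are given for members past the threshold and for the 6 succinate dehydrogenase genes; other pathway genes past it are named, at most 8 per comparison. One gene first placed on the pathway list is not reported here and is left out of its counts. Any other member given with values was chosen after its values were seen. The labels do not say whether replicates were separate animals or cultures, so p-values measure only the spread between these samples. Pairing was judged by correlating deviations from the group means of same-numbered libraries. In the first experiment 6 of 18 correlations were above 0.1 (-0.141 to 0.231) and the numbers were not treated as pairs. In the second all 3 were above 0.1 (0.354 to 0.455). The main fit of the second experiment still used groups alone, and results with the replicate block are given beside it. LPS replicate 3 had the fewest counts, so values near 0 in it are imprecise.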

Additional observations from a re-analysis of the deposited data

Results flagged for a closer look

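Among the other genes of the pathway, 3 responded to LPS differently with and without the compound, by edgeR's interaction test with Benjamini-Hochberg adjustment over all genes. That is 11.5% of the 26 tested, against 2.91% of all genes. The list was chosen with earlier results of these data known, so this share does not test the pathway. For Glul the response with the compound was higher by 2.73 ± 0.49 on the log2 scale (adjusted p = 0.0045), and it was the LPS group that stood low. Its levels were 419, 441 and 652 CPM in vehicle, 97.7, 131 and 41.8 after LPS, 471, 461 and 583 with the compound and 562, 694 and 585 with both. The rise of Slc25a12 after LPS was smaller with the compound, by -1.97 ± 0.49 (adjusted p = 0.035), and that of Acod1 by -2.92 ± 0.67 (adjusted p = 0.023). Acod1 stood at 12.6, 17.0 and 9.28 CPM in vehicle and already at 125, 46.1 and 109 with the compound alone. It reached 17100, 20530 and 6992 CPM after LPS and 11580, 22170 and 9067 with both, which overlap. For Acod1 it was thus the starting level that stood higher with the compound. The Slc25a12 call was lost without any 1 of the 9 libraries of the vehicle, compound and compound plus LPS groups (-2.04 to -1.89, adjusted p = 0.066 to 0.099). The Acod1 call was lost without replicate 1 or 3 of any of these 3 groups (-2.90 to -2.65, adjusted p = 0.065 to 0.087). Without LPS replicate 3 all 3 passed (2.38 for Glul, -1.45 for Slc25a12 and -3.31 for Acod1). No explanation was tested.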

How the results depend on the processing

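Scaling by library totals alone was chosen after seeing the data. Of the 31 genes, 3 passed after LPS against vehicle. The count was 5 in DESeq2, 6 with upper quartile factors, 24 with library totals and 0 with only the 2 compared groups fitted. Single libraries left out gave 1 to 5 (1 without vehicle replicate 2 or 3, 5 without LPS replicate 3). The median fold change of the 31 genes was -0.74 with upper quartile factors, -1.44 with library totals, and -0.71 to -0.41 with single libraries left out. Over all genes 5803 passed with library totals and 2108 in the 2-group fit, against 3529. For compound against vehicle, 1 of the 31 passed in DESeq2, 3 in the 2-group fit and 0 to 2 with single libraries left out (2 without LPS replicate 3). The median was -0.36 with library totals. All genes called were 292, and 654 in DESeq2, 458 with no filter, 1013 in the 2-group fit and 140 to 803 with single libraries left out, where 803 is without LPS replicate 3.

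For compound plus LPS against LPS, 2 passed, but 1 with upper quartile factors or with no filter, 0 in the 2-group fit and 0 to 3 with single libraries left out. The median ranged from 0.0995 (without LPS replicate 2) to 0.46. Over all genes 653 passed in the 2-group fit and 885 to 1948 with single libraries left out, the lowest without compound plus LPS replicate 1. For compound plus LPS against compound, 2 passed, but 1 with RLE factors, upper quartile factors or no filter, 5 with library totals, 4 in the 2-group fit and 0 to 3 with single libraries left out. The median was -0.24 with upper quartile factors and -0.61 with library totals, and 3196 genes in all passed in the 2-group fit. For the interaction, 2 passed in DESeq2 and 0 to 1 with single libraries left out (1 without LPS replicate 1). The median was 0.84 with library totals and 0.19 to 0.59 with single libraries left out. All genes called were 299, and 816 in DESeq2, 497 with no filter and 132 to 806 with single libraries left out (806 without LPS replicate 3). For the knockout, all genes called were 6, and 36 in DESeq2, 40 with no filter and 3 to 6 with single libraries left out (3 without replicate 3 of either genotype).

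The replicate block left 0 of the 31 genes called for compound plus LPS against LPS and 1 for compound plus LPS against compound. It gave 1 for the knockout, where 594 genes in all passed. Whether equal numbers pair the libraries of the first experiment is not known. Of the 18 correlations of same-numbered libraries there, 6 were above 0.1, and they ran from -0.141 to 0.231. Between LPS and compound plus LPS they were 0.111, 0.097 and 0.174. The calls lost under the block may thus depend on a pairing that was not settled.

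Estimates of uncalled succinate dehydrogenase genes near 0 changed sign. With library totals Sdhaf2 was -0.60 (LPS against vehicle), Sdhc -0.0308 (compound against vehicle) and Sdhb 0.0344 (compound plus LPS against LPS). For compound plus LPS against compound, Sdhb was -0.0598 in DESeq2, -0.0589 with RLE factors, -0.13 with upper quartile factors and -0.50 with library totals. There Sdhc was -0.051 and -0.42, and Sdhd -0.0379 and -0.42, with the last 2 scalings. In the knockout Sdhb was 0.0298 and Sdhd 0.0306 with library totals. With single libraries left out, LPS against vehicle gave -0.51 to 0.30 for Sdhb and -0.0773 to 0.63 for Sdhaf2. Compound against vehicle gave -0.60 to 0.0214 for Sdhb, -0.20 to 0.19 for Sdhd and -0.85 to 0.20 for Sdhaf1. Compound plus LPS against LPS gave -0.0496 to 0.96 for Sdha, -0.53 to 0.20 for Sdhb and -0.58 to 0.13 for Sdhaf2. Compound plus LPS against compound gave -0.10 to 0.0802 for Sdha, -0.13 to 0.29 for Sdhb and -0.0501 to 0.34 for Sdhd. The interaction gave -0.22 to 0.59 for Sdhb. The knockout gave -0.18 to 0.0511 for Sdha, -0.46 to 0.27 for Sdhb, -0.15 to 0.10 for Sdhd and -0.38 to 0.20 for Sdhaf1.

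The 2-group fits rest on fewer libraries, and the unfiltered ones test more genes; for the other settings the cause was not tested. LPS replicate 3, at 955718 counts, limits what low genes such as Sdhaf1, Slc25a1 and Pcx can show.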
